A study of Homo sapiens with 6 samples.

Results

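The G2/M and mitosis genes of 21NT cells were examined in RNA-Seq libraries of cells that overexpressed either isoform of the transcription factor TBX3. The group held 49 of the 20824 genes in the expression table and was chosen by gene symbol: mitotic cyclins and their kinase, mitotic kinases, spindle checkpoint and kinetochore genes, kinesins, condensin subunits, cytokinesis genes and the transcription factors *FOXM1* and *MYBL2*. The rule uses gene names and no expression value. 21NT is a non-invasive human breast cancer cell line with low endogenous TBX3. The cells were stably transfected with the empty pcDNA3.1 vector (EV) or with the same vector carrying TBX3iso1 or TBX3iso2, and all 3 lines were kept in αMEM with insulin, EGF, hydrocortisone, serum and the selection agent G418. Resistant cells of each transfection were pooled, so each condition is 1 transfected line, and each line was sequenced as 2 libraries, 6 in all. The sources do not say whether those libraries came from separate cultures, and p-values may therefore measure only technical spread. TBX3 itself is given as 1 value per gene, which does not separate the isoforms.

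Cells enter mitosis when cyclin B binds and activates the kinase CDK1, with PLK1 and the Aurora kinases acting beside it. The spindle checkpoint then holds the anaphase-promoting complex in check until every kinetochore is attached to microtubules, after which securin is destroyed and separase opens the cohesin ring. Most of these genes are transcribed late in the cell cycle under the MuvB complexes with B-MYB and FOXM1, and their promoters are known for CCAAT boxes, bound by NF-Y, and for a cell cycle genes homology region (CHR), bound by MuvB. Their combined mRNA level is widely read as a measure of proliferation in breast tumours.

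Promoter sequences are shown for the members whose transcripts changed most, with *CCNB1* and *CDC20* beside them, since such elements are a feature of this group that the expression data did not use. The stretch of *NEK2* was also located and is not printed. Its window held 2 CCAAT boxes and neither TTTGAA nor TTCGAA. The bases directly before a RefSeq transcript start are given on the gene's strand, 5′ to 3′, with CCAAT boxes (CCAAT, or ATTGG on the other strand) and CHR elements (TTTGAA or TTCGAA) in capitals.
SPC25, chr2:169746941-169747038, minus strand: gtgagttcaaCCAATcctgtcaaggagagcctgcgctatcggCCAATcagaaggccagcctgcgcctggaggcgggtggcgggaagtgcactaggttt
NCAPH, chr2:97001374-97001503, plus strand: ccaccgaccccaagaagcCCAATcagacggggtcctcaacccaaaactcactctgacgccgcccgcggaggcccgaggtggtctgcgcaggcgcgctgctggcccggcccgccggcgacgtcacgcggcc
BUB1, chr2:111435641-111435770, minus strand: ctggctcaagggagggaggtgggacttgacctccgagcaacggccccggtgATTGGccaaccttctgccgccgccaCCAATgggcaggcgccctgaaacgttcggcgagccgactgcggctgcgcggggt
PTTG1, chr5:159848732-159848861, plus strand: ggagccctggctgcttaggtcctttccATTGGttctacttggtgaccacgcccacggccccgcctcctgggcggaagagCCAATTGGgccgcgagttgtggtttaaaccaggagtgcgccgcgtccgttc
AURKB, chr17:8113568-8113697, minus strand: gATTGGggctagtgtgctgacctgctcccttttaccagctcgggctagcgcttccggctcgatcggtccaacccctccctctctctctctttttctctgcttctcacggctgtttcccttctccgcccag
CCNB1, chr5:68462847-68462976, plus strand: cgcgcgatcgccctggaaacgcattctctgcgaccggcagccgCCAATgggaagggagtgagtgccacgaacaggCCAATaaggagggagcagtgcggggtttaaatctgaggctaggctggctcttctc
CDC20, chr1:43824522-43824651, plus strand: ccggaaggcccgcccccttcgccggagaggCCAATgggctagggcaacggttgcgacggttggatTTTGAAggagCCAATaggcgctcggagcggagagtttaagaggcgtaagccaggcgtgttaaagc

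Coordinates are GRCh37, where each RefSeq window matched at exactly 1 place. Over windows of 300 bases, 250 before and 50 after the start, 41 of the 49 members had a sequence, in 52 windows. *FOXM1*, *AURKA*, *PBK*, *BUB3*, *TTK*, *UBE2C*, *BIRC5* and *TPX2* had none. A CCAAT box on either strand was present in 71.2% of the members' windows against 34.6% of all 35116 promoter windows, and also in 59.3% of the windows of a second G2/M list of 78 genes and in 55.6% of those of a G1/S and DNA replication list. A CHR was present in 63.5% against 16.4%, and both elements were present in 50.0% against 6.38%. In the 64 matched genes of the second G2/M list the share with a CHR was 58.0% of 81 windows, and in the 47 matched genes of the G1/S and DNA replication list it was 4.76% of 63 windows. A CHR that began within 50 bases of the start was found in 50.0% of the members' windows and in 5.01% of all windows. *SPC25* had a CHR at base −247 and another that spans its start, from base −3, and *BUB1* had one just behind its start, at base 2, and none of these is in the stretch printed above. The windows of *NCAPH*, *PTTG1*, *AURKB* and *CCNB1* held CCAAT boxes and neither TTTGAA nor TTCGAA, and the last 2 boxes of *PTTG1* overlap. *CENPE*, *KIF2C* and *MYBL2* had neither a CCAAT box nor a CHR of these spellings in any window. Other spellings of the CHR were not searched, so these windows cannot be said to lack one. The T-box half-site GGTGTGA, added to the search after the RPKM values were known, was in 3.85% of the members' windows (those of *MAD2L1* and *KIF20A*) and in 3.45% of all windows. These are matches of letters and not measurements of binding.

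**Figure D1:**
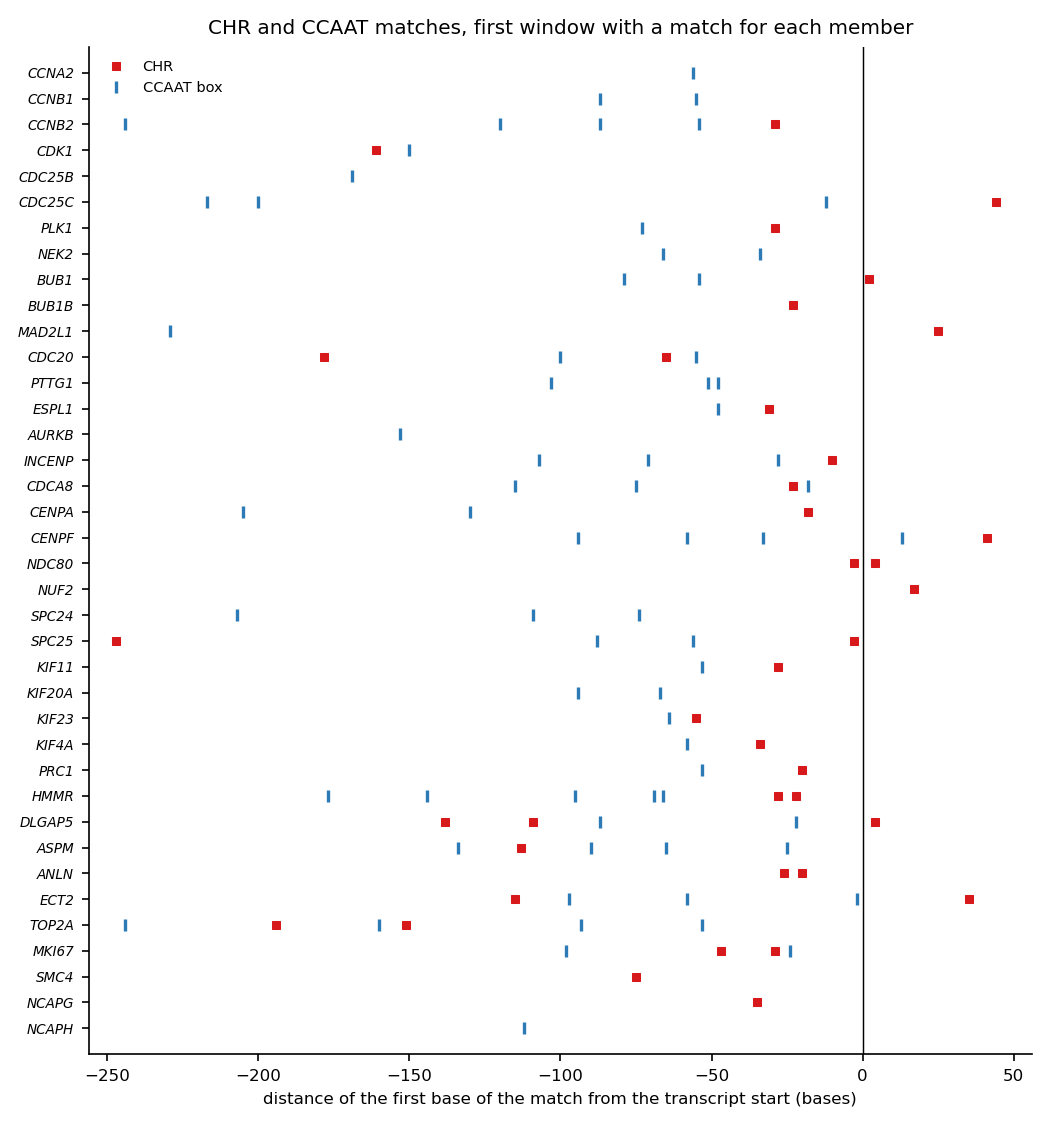
Positions of CHR matches (red squares) and CCAAT boxes (blue bars) in the first promoter window with a match of each of the members that had one, as the distance in bases of the first base of the match from the transcript start. CHR matches gather near the start, and CCAAT boxes lie further upstream. Over the matches in all windows of the members, not only those drawn, the medians were base −29 for CHR and base −79 for CCAAT.

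The deposited unit is RPKM, read numbers normalised for the length of the transcript and for library size. The libraries held 43176600 to 54512400 alignments, and no counts per gene were given, so the precision that depth gives to 1 gene was not computed. The sum of RPKM over all genes was 323952.6 to 331476.1 in 4 libraries, and was 359686.6 and 357269.0 in replicate 2 of 21NT + TBX3iso1 and of 21NT + TBX3iso2. *TBX3*, the transfected gene, was at 8.52 and 8.24 RPKM in EV, 13.1 and 11.4 RPKM with TBX3iso1, and 17.5 and 15.5 RPKM with TBX3iso2. Between the means of the lines, the rise with TBX3iso1 was under 1.5-fold and that with TBX3iso2 was over it. The epithelial markers *EPCAM*, *KRT8*, *KRT18*, *KRT19*, *CDH1* and *ERBB2* were all above 1 RPKM in every library, with sums of 2670 to 2770 RPKM in EV, 2100 to 2290 RPKM with TBX3iso1 and 2350 to 2590 RPKM with TBX3iso2. Of the fibroblast, leukocyte and endothelial markers, 6 of 7, 4 of 6 and 4 of 5 were below 1 RPKM in every library. The exceptions were *COL1A1*, *CD14*, *CD68* and *PECAM1*. The summed fibroblast list was at 4.6 to 4.86 RPKM in EV, 8.13 to 8.72 RPKM with TBX3iso1 and 7.16 to 7.58 RPKM with TBX3iso2. The leukocyte list was at 52.7 to 55.0 RPKM in EV and 36.3 to 36.9 RPKM in the isoform lines, and the endothelial list at 7.41 to 7.77 RPKM in EV and 1.32 to 1.49 RPKM in the isoform lines. The part of other cells in the values of the members was not tested.

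All 49 members were expressed and all were tested. Values were compared as log2(RPKM + 0.1) with limma in the 12805 genes whose mean reached 0.5 RPKM, and p-values were adjusted over those genes by Benjamini and Hochberg. A call of higher or lower needed an adjusted p under 0.05 together with a change of more than 1.5-fold. In EV the median level of the members was 30.6 RPKM, against 7.87 RPKM for all genes tested, and the members lay between percentiles 38.6 and 98.5 of those genes. The highest were *CDC20*, the activator of the anaphase-promoting complex, at 222 and 213 RPKM in EV, *ANLN*, the anillin of the contractile ring, at 158 and 151 RPKM, and *UBE2C*, the ubiquitin-conjugating enzyme of that complex, at 93.5 and 100.2 RPKM. The lowest over all libraries were *CDC25C*, a phosphatase that activates CDK1, at 5.08 and 5.58 RPKM in EV, *CENPE*, a kinetochore kinesin, at 5.08 and 5.20 RPKM, and *ESPL1*, separase, at 9.13 and 8.10 RPKM.

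As a group the members were higher in both isoform lines than in EV, by small amounts. Their RPKM summed to 2045 and 2016 in EV, to 2218 and 2237 with TBX3iso1, and to 2485 and 2469 with TBX3iso2. The lines did not overlap, and the mean sum was 1.10 times that of EV with TBX3iso1 and 1.22 times with TBX3iso2. With median-ratio scaling of the libraries these ratios were 1.16 and 1.25, and with quantile normalization they were 1.05 and 1.15. The RPKM of all genes summed to 325690.3 and 323952.6 in EV, 330997.9 and 359686.6 with TBX3iso1, and 331476.1 and 357269.0 with TBX3iso2. The members' sums were not taken as a share of these totals. In bulk mRNA, a larger share of cells in G2 or mitosis and more transcript per cell cannot be told apart, and cell cycle phase was not measured in these libraries.

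With TBX3iso1, the median log2 fold change of the 49 members against EV was 0.13, and that of all genes tested was −0.05. The difference was positive for 32 members and negative for 17. Called higher were 3 members, *SPC25*, *NCAPH* and *BUB1*, and none was called lower, which makes 6.12% of the group. At an unadjusted p under 0.05, 19 members were higher and 3 lower, beside 2940 and 3918 of the 12805 genes tested. Of all genes tested 21.5% were called, 7.46% higher and 14.1% lower, so the share of members called higher is near that of all genes. At an adjusted p under 0.05 without the fold threshold, 17 members were higher (34.7%) and 2 lower, *CDC25B* and *NEK2*, beside 19.0% and 25.7% of all genes (44.8% in all). This count depended on single libraries and on the model. It was 6 higher and 1 lower without EV replicate 1, 5 and 0 without EV replicate 2, and 8 and 2 without TBX3iso1 replicate 2, beside 10.7%, 9.14% and 12.6% of all genes higher, and 7 and 1 in an ordinary linear model (10.3% of all genes higher). With the replicate number as a block it was 21 higher and 5 lower, beside 24.1% and 31.8% of all genes. Both TBX3iso1 libraries were above both EV libraries for 29 members (59.2%, all genes 34.3%) and below them for 10 (20.4%, all genes 44.1%).

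With TBX3iso2, the median log2 fold change against EV was 0.29, beside 0.00 for all genes tested, with 39 members positive and 10 negative. Called higher were 5 members, *SPC25*, *BUB1*, *NCAPH*, *PTTG1* and *AURKB*, and none was called lower, which makes 10.2%. At an unadjusted p under 0.05, 31 members were higher and 2 lower, beside 3425 and 3435 of the 12805 genes tested. Among all genes 21.2% were called, 8.94% higher and 12.3% lower, so here too the share called higher is near that of all genes. Without the fold threshold, 28 members were higher (57.1%) and 2 lower, *FOXM1* and *CDC25B*, beside 22.9% and 22.7% of all genes (45.5% in all). Without EV replicate 1 or EV replicate 2 it was 15 higher and 1 lower, beside 12.9% (without replicate 1) and 11.5% (without replicate 2) of all genes higher. Both TBX3iso2 libraries were above both EV libraries for 36 members (73.5%, all genes 37.5%) and below for 2 (4.08%, all genes 37.2%). Both comparisons use the same EV libraries, so a deviation of EV would enter each of them. Most members thus differed from EV by less than 1.5-fold.

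**Figure D2:**
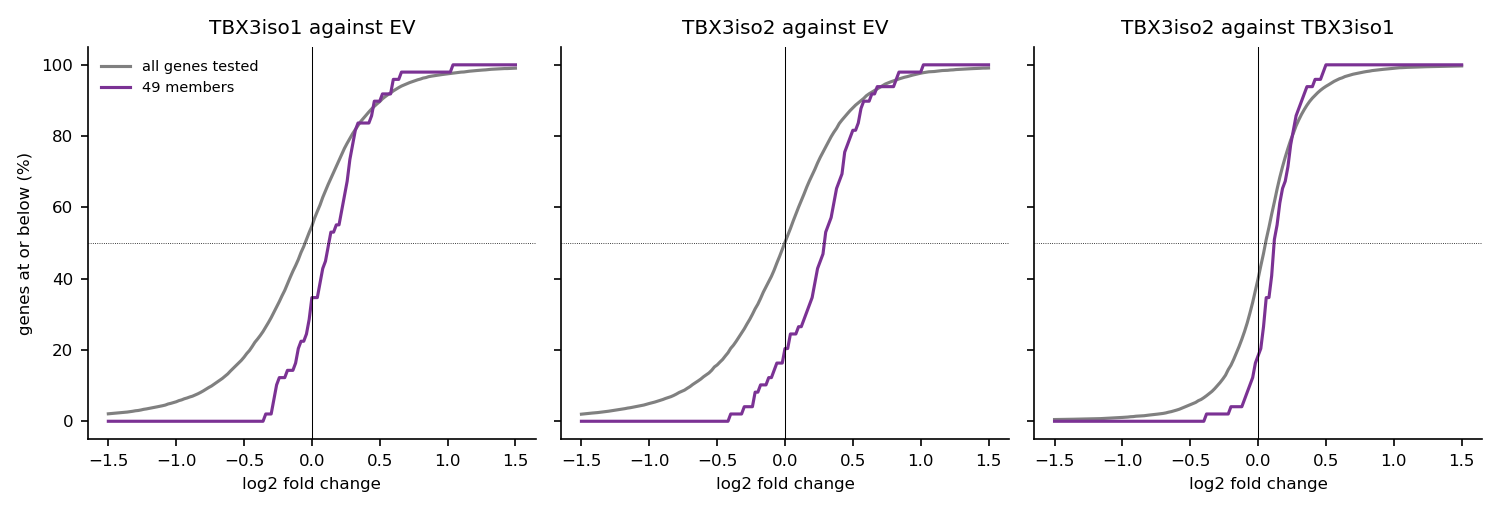
Cumulative share of genes (y axis, percent) at or below each log2 fold change (x axis, shown from −1.5 to 1.5) for the 49 members (purple) and for all 12805 genes tested (grey) in the 3 comparisons. The members' curve lies to the right of the grey curve over its lower and middle part, with medians of 0.13, 0.29 and 0.12 against −0.05, 0.00 and 0.05 for all genes, and it does not reach the long tails of the grey curve.

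The isoforms were also compared with each other. No member was called by limma, beside 3.47% of all genes higher and 2.82% lower (6.29% in all). At an unadjusted p under 0.05, 17 members were higher with TBX3iso2 and 2 lower, beside 2467 and 1479 of the 12805 genes tested. Both TBX3iso2 libraries were above both TBX3iso1 libraries for 22 members (44.9%, all genes 33.4%) and below for 4 (8.16%, all genes 20.1%). At an adjusted p under 0.05 alone, 5 members were higher with TBX3iso2 (10.2%) and 1 was lower, beside 8.79% and 5.97% of all genes (14.8% in all), and the median difference was 0.12 on the log2 scale against 0.05 for all genes. The members higher with TBX3iso2 were *AURKA*, *HMMR*, *PLK1*, *CDC20* and *NEK2*, and the lower one was *FOXM1*. Without EV replicate 1, EV replicate 2 or TBX3iso1 replicate 1 only *AURKA* and *HMMR* passed, and an ordinary linear model without moderation found none of the 49. With the replicate number as a block 14 were higher and 1 lower, beside 15.5% and 9.5% of all genes.

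**Figure D3:**
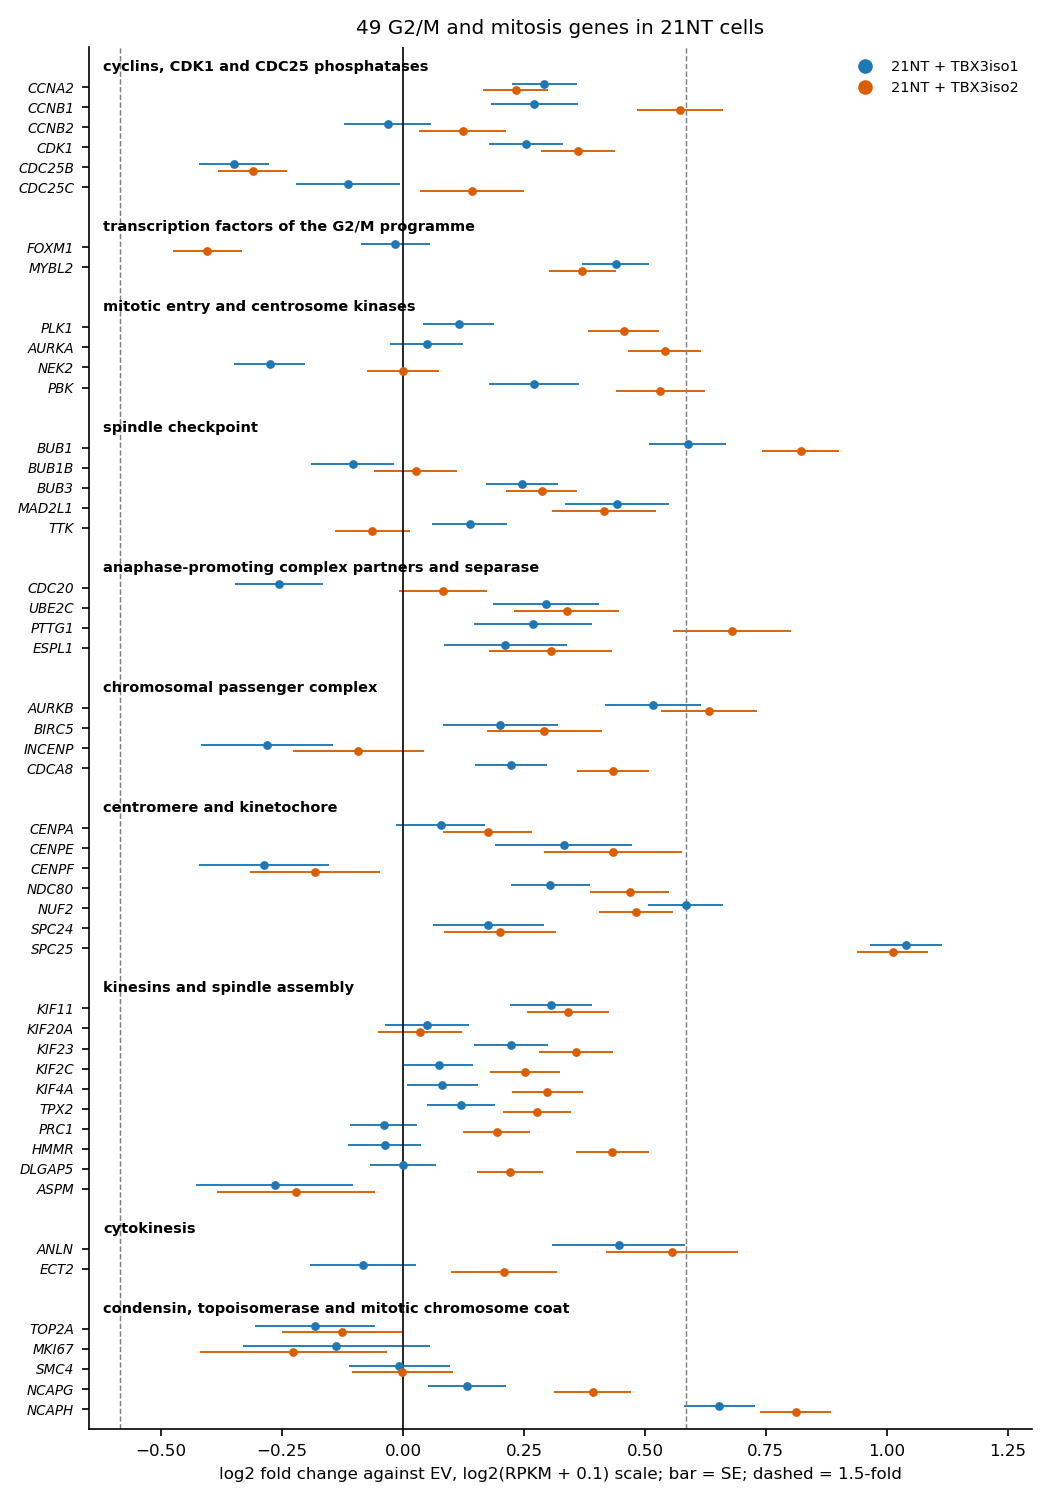
Log2 fold change against EV of each of the 49 members (points, with bars of 1 SE from the limma fit) with TBX3iso1 (blue) and TBX3iso2 (orange), ordered by role, with dashed lines at 1.5-fold. *SPC25*, *NCAPH* and *BUB1* lie beyond the right line for both isoforms, *PTTG1* and *AURKB* for TBX3iso2, and no point lies beyond the left line.

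Among the cyclins, CDK1 and the CDC25 phosphatases none of 6 members was called with either isoform. *CCNB1*, the cyclin B1 that drives mitotic entry, was at 79.6 and 77.3 RPKM in EV, 89.4 and 100.4 RPKM with TBX3iso1, and 111 and 122 RPKM with TBX3iso2. The lines rank without overlap, and the log2 difference from EV was 0.27 ± 0.09 (SE, limma adjusted p = 0.0402) and 0.57 ± 0.09 (adjusted p = 0.00179), the latter 1.49-fold and just short of the threshold. *CDK1*, its kinase, was at 24.2 and 25.1 RPKM in EV, 28.3 and 30.7 RPKM with TBX3iso1, and 30.7 and 32.7 RPKM with TBX3iso2. Its log2 differences from EV were 0.25 ± 0.08 (limma adjusted p = 0.0299) and 0.36 ± 0.08 (adjusted p = 0.00702). *CCNA2*, cyclin A2, was 0.29 and 0.23 above EV on the log2 scale (limma adjusted p = 0.00971 and 0.0239), and *CCNB2*, cyclin B2, differed by −0.03 and 0.12 (adjusted p = 0.794 and 0.298). *CDC25B*, which removes inhibitory phosphates from CDK1, went the other way. It was at 36.3 and 38.1 RPKM in EV, 30.1 and 28.3 RPKM with TBX3iso1 and 29.7 and 30.2 RPKM with TBX3iso2, below EV in all 4 isoform libraries, with log2 differences of −0.35 ± 0.07 (limma adjusted p = 0.00619) and −0.31 ± 0.07 (adjusted p = 0.00995). It had the most negative value of the group with TBX3iso1. *CDC25C* differed by −0.11 and 0.14 (limma adjusted p = 0.411 and 0.313).

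The transcription factors of the programme did not move together. *FOXM1*, the forkhead factor of G2/M transcription, was at 67.8 and 65.0 RPKM in EV, 66.3 and 65.0 RPKM with TBX3iso1, and 51.4 and 48.8 RPKM with TBX3iso2. EV and TBX3iso1 overlap, with a log2 difference of −0.02 ± 0.07 (limma adjusted p = 0.870), which becomes positive with median-ratio scaling. TBX3iso2 lay below both, by −0.40 ± 0.07 against EV (adjusted p = 0.00307) and by −0.39 ± 0.07 against TBX3iso1 (adjusted p = 0.0122), the most negative member in both of those comparisons. *MYBL2*, which encodes B-MYB, was at 32.3 and 32.4 RPKM in EV, 44.1 and 43.7 RPKM with TBX3iso1, and 40.5 and 43.3 RPKM with TBX3iso2. Its log2 differences from EV were 0.44 ± 0.07 (limma adjusted p = 0.00197) and 0.37 ± 0.07 (adjusted p = 0.00408).

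Of the 10 role groups, the kinases of mitotic entry and the centrosome had the largest gap between the isoforms in their medians, with a median log2 difference from EV of 0.08 with TBX3iso1 and 0.49 with TBX3iso2 over 4 members. *AURKA*, the Aurora kinase of centrosomes and spindle poles, was at 73.4 and 73.1 RPKM in EV and 74.1 and 77.5 RPKM with TBX3iso1, and at 103 and 110.4 RPKM with TBX3iso2. Its log2 difference was 0.05 ± 0.08 for TBX3iso1 (limma adjusted p = 0.620), 0.54 ± 0.08 for TBX3iso2 (adjusted p = 0.00107) and 0.49 ± 0.08 between the isoforms (adjusted p = 0.00629), the largest difference between them in the group. *PLK1*, the polo-like kinase, was at 71.6 and 67.0 RPKM in EV, 75.9 and 74.2 RPKM with TBX3iso1, and 93.9 and 96.3 RPKM with TBX3iso2. Its log2 differences were 0.12 ± 0.07 (limma adjusted p = 0.233), 0.46 ± 0.07 (adjusted p = 0.00208) and 0.34 ± 0.07 between the isoforms (adjusted p = 0.0218). *NEK2*, a kinase of centrosome separation, was lower with TBX3iso1 than with EV by −0.28 (limma adjusted p = 0.0182) and differed by 0.00 with TBX3iso2 (adjusted p = 0.998). *PBK*, a kinase active in mitosis, was 0.27 and 0.53 above EV (limma adjusted p = 0.0456 and 0.00283).

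**Figure D4:**
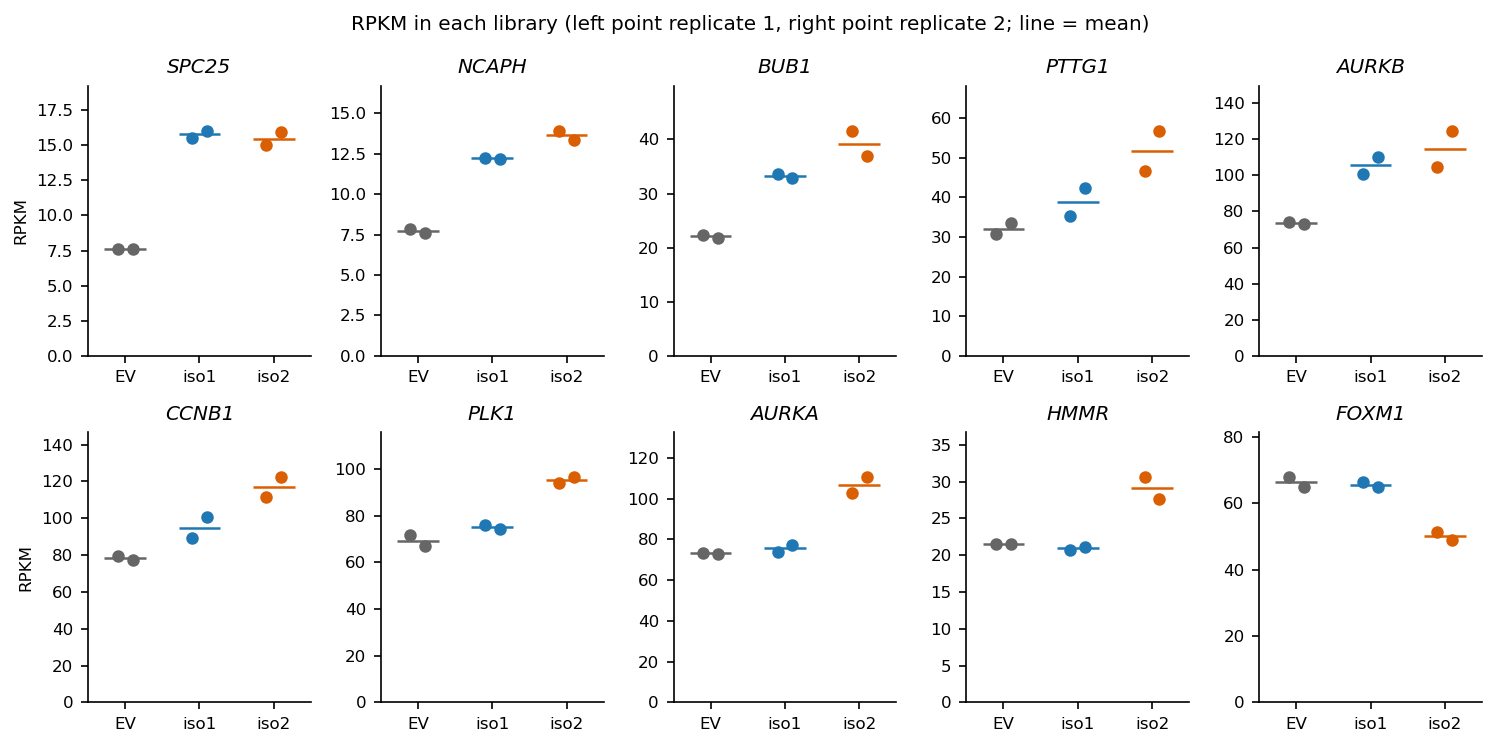
RPKM (y axis, from 0) of 10 members in each library of EV, TBX3iso1 (iso1) and TBX3iso2 (iso2), with a line at the mean of each line's 2 libraries. In the upper row every isoform library lies above both EV libraries, and in the lower row *PLK1*, *AURKA* and *HMMR* stand apart upwards and *FOXM1* downwards in the TBX3iso2 libraries.

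Of 5 spindle checkpoint genes, *BUB1* was called with both isoforms. *BUB1*, the kinase that recruits checkpoint proteins to kinetochores, was at 22.4 and 21.8 RPKM in EV, 33.7 and 32.9 RPKM with TBX3iso1, and 41.6 and 36.9 RPKM with TBX3iso2. No library of either isoform came near the EV libraries, and *BUB1* rose on the log2 scale by 0.59 ± 0.08 in the TBX3iso1 line (limma adjusted p = 0.000956) and by 0.82 ± 0.08 in the TBX3iso2 line (adjusted p = 0.000208). With TBX3iso1 the rise was 1.503-fold, on the threshold, and *NUF2*, at 1.499-fold, was the member just outside it. Without EV replicate 2 or without TBX3iso1 replicate 1 *BUB1* measured 0.57 and was no longer called, and *NUF2* was called. The *BUB1* call was also lost with a pseudocount of 1 RPKM (0.57) and with quantile normalization (0.58). *BUB3*, the partner of BUB1, was at 56.7 and 56.7 RPKM in EV, 65.8 and 68.8 RPKM with TBX3iso1, and 66.7 and 71.7 RPKM with TBX3iso2, with log2 differences of 0.25 ± 0.07 (limma adjusted p = 0.0294) and 0.29 ± 0.07 (adjusted p = 0.0158). *MAD2L1*, which encodes the checkpoint protein MAD2, was 0.44 and 0.41 above EV (limma adjusted p = 0.0126 and 0.0163). *BUB1B*, which encodes BUBR1, differed by −0.10 and 0.03 (limma adjusted p = 0.350 and 0.825), and *TTK*, the MPS1 kinase, by 0.14 and −0.06 (adjusted p = 0.179 and 0.530).

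The anaphase group comprised *CDC20*, *UBE2C*, *PTTG1* and *ESPL1*. *PTTG1*, securin, was at 30.8 and 33.5 RPKM in EV, 35.3 and 42.5 RPKM with TBX3iso1, and 46.7 and 56.8 RPKM with TBX3iso2. The lines do not overlap, and *PTTG1* rose with TBX3iso2 by a log2 fold change of 0.68 ± 0.12 (limma adjusted p = 0.00335), beside 0.27 ± 0.12 with TBX3iso1 (adjusted p = 0.108). *PTTG1* has near-identical copies elsewhere in the genome, and how reads shared with them were assigned is not given, so its level is uncertain. The call also rests on replicate 2 of TBX3iso2, without which the log2 fold change was 0.54 and under the threshold, and it was lost in ordinary linear models on log2 values (adjusted p = 0.0744) and on unlogged RPKM (adjusted p = 0.084), where limma's moderation was not used. *CDC20* was at 177 and 188 RPKM with TBX3iso1 and 220.4 and 241 RPKM with TBX3iso2. Against EV it differed by −0.26 ± 0.09 with TBX3iso1 (limma adjusted p = 0.0513) and by 0.08 ± 0.09 with TBX3iso2 (adjusted p = 0.485), and the isoforms differed by 0.34 ± 0.09 (adjusted p = 0.0447). *UBE2C* was at 109 and 129.8 RPKM with TBX3iso1 and 116 and 129.7 RPKM with TBX3iso2, 0.30 ± 0.11 (limma adjusted p = 0.0589) and 0.34 ± 0.11 (adjusted p = 0.0366) above EV on the log2 scale. *ESPL1* was at 10.9 and 9.09 RPKM with TBX3iso1 and 11.7 and 9.73 RPKM with TBX3iso2, 0.21 ± 0.13 and 0.31 ± 0.13 above EV (limma adjusted p = 0.208 and 0.0855).

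In the chromosomal passenger complex, which corrects faulty attachments, 1 of 4 members was called. *AURKB*, its kinase, was at 74.0 and 73.3 RPKM in EV, 101 and 110.0 RPKM with TBX3iso1, and 105 and 125 RPKM with TBX3iso2. All 4 isoform libraries lay above EV, and *AURKB* rose with TBX3iso2 by a log2 fold change of 0.63 ± 0.10 (limma adjusted p = 0.00189). With TBX3iso1 the value was 0.52 ± 0.10 (adjusted p = 0.00485), or 1.43-fold. Without replicate 2 of TBX3iso2 the former was 0.51 and the call was lost. It was also lost with quantile normalization (0.54) and in an ordinary linear model on unlogged RPKM (adjusted p = 0.0613, without limma's moderation). *CDCA8*, borealin, was 0.22 and 0.43 above EV (limma adjusted p = 0.0434 and 0.00277), *BIRC5*, survivin, 0.20 and 0.29 (adjusted p = 0.201 and 0.0806), and *INCENP*, the scaffold of the complex, differed by −0.28 and −0.09 (adjusted p = 0.128 and 0.606).

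*SPC25* had the largest change of the group with both isoforms. *SPC25* encodes a subunit of the NDC80 complex, which links kinetochores to microtubules, and was at 7.64 and 7.60 RPKM in EV, 15.5 and 16.0 RPKM with TBX3iso1, and 15.0 and 15.9 RPKM with TBX3iso2. The isoform lines overlap each other and lie at 2.06 and 2.02 times EV. *SPC25* rose by a log2 fold change of 1.04 ± 0.07 (limma adjusted p = 5.42e-05) and 1.01 ± 0.07 (adjusted p = 6.05e-05). The other 3 subunits of the same complex were higher by less. *NUF2* was at 22.3 and 23.2 RPKM in EV, 33.0 and 35.4 RPKM with TBX3iso1, and 33.1 and 30.6 RPKM with TBX3iso2, with log2 differences of 0.58 ± 0.08 (limma adjusted p = 0.000874) and 0.48 ± 0.08 (adjusted p = 0.00203). *NDC80* was 0.30 and 0.47 above EV (limma adjusted p = 0.0195 and 0.00301), and *SPC24*, the direct partner of SPC25, 0.18 and 0.20 (adjusted p = 0.244 and 0.192). *CENPE* was at 7.15 and 5.90 RPKM with TBX3iso1 and 7.94 and 6.14 RPKM with TBX3iso2, 0.33 ± 0.14 and 0.43 ± 0.14 above EV (limma adjusted p = 0.0927 and 0.0391). *CENPA*, the centromeric histone, differed from EV by 0.08 and 0.17 (limma adjusted p = 0.514 and 0.158), and *CENPF*, an outer kinetochore protein, by −0.29 and −0.18 (adjusted p = 0.115 and 0.298).

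The 10 kinesins and spindle assembly genes had no call. At an adjusted p alone 2 of them were higher with TBX3iso1 (*KIF11* and *KIF23*) and 7 with TBX3iso2, which is 20.0% and 70.0% of them beside 19.0% and 22.9% of all genes. Without EV replicate 1 or EV replicate 2 fewer of these 10 genes passed with either isoform, and a smaller share of all genes was higher as well. *HMMR*, a spindle protein and hyaluronan receptor, was at 21.5 and 21.5 RPKM in EV, 20.7 and 21.1 RPKM with TBX3iso1 and 30.6 and 27.6 RPKM with TBX3iso2. The TBX3iso2 libraries stand apart, at a log2 difference of 0.43 ± 0.08 from EV (limma adjusted p = 0.00296) and 0.47 ± 0.08 from TBX3iso1 (adjusted p = 0.00740). *TPX2*, which activates AURKA on the spindle, was 0.12 and 0.28 above EV (limma adjusted p = 0.200 and 0.0153). *KIF11*, the motor that separates spindle poles, was 0.31 and 0.34 above EV (adjusted p = 0.0214 and 0.0137 by limma). *KIF23*, a central spindle kinesin, was 0.22 and 0.36 above it (adjusted p = 0.0477 and 0.00742 by limma). *KIF2C*, *KIF4A* and *DLGAP5* had an adjusted p under 0.05 with TBX3iso2, at log2 differences of 0.25, 0.30 and 0.22. *PRC1*, which bundles microtubules of the midzone, *KIF20A* and *ASPM*, a spindle pole protein, did not pass with either isoform, and *ASPM* was at −0.27 and −0.22.

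In cytokinesis, *ANLN* was at 230.4 and 191 RPKM with TBX3iso1 and 255 and 202 RPKM with TBX3iso2, all above EV, with log2 differences of 0.45 ± 0.14 (limma adjusted p = 0.0318) and 0.56 ± 0.14 (adjusted p = 0.0130). *ECT2*, which activates RhoA at the cleavage site, differed by −0.08 and 0.21 (limma adjusted p = 0.563 and 0.154).

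Of the genes of chromosome condensation, *NCAPH*, the kleisin subunit of condensin I, was called with both isoforms. It was at 7.84 and 7.62 RPKM in EV, 12.2 and 12.2 RPKM with TBX3iso1, and 13.9 and 13.4 RPKM with TBX3iso2. The replicates lay close together and far from EV, and *NCAPH* rose by a log2 fold change of 0.65 ± 0.07 (limma adjusted p = 0.000421) and 0.81 ± 0.07 (adjusted p = 0.000156). *NCAPG*, in the same complex, was 0.13 and 0.39 above EV (limma adjusted p = 0.211 and 0.00601), and *SMC4*, shared by both condensins, was at −0.01 and 0.00 (adjusted p = 0.956 and 0.987). *MKI67*, the antigen of the Ki-67 proliferation stain, was at 24.4 and 24.3 RPKM in EV, 24.4 and 20.1 RPKM with TBX3iso1, and 26.1 and 16.6 RPKM with TBX3iso2. Its libraries overlap, and its log2 differences of −0.14 ± 0.19 (limma adjusted p = 0.583) and −0.23 ± 0.19 (adjusted p = 0.368) move to 0.0015 and 0.10 without replicate 2 of the line. The 95% interval for TBX3iso2, −0.68 to 0.22, leaves its direction undetermined. *TOP2A*, the topoisomerase of S phase and mitosis, differed by −0.18 and −0.13 (limma adjusted p = 0.263 and 0.439).

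*MKI67* has the longest transcript of the group, 12716 bases, and the spread between replicates followed transcript length. Across the 49 members, replicate 2 minus replicate 1 (log2) fell with the log of transcript length in both isoform lines, with Pearson's r of −0.757 for TBX3iso1 and −0.780 for TBX3iso2, beside −0.186 for EV. The points of each value share the same pair of libraries. In 12266 genes tested that had a transcript length, r was −0.504, −0.566 and −0.0950. In the 16 members with transcripts up to 2160 bases the median difference was 0.13 and 0.11, and in the 16 with at least 4114 bases it was −0.21 and −0.27. The same 2 libraries had the higher sums of RPKM given above. The log2 fold change itself varied with length by r = −0.25 for TBX3iso1 and −0.378 for TBX3iso2 across members. With the length trend of each library removed, 3 and 5 members were called against EV and the median log2 fold changes were 0.17 and 0.27. Among those calls *AURKB*, with a short transcript, was replaced by *ANLN* with TBX3iso2. The part of RNA quality or library preparation in this pattern was not tested.

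**Figure D5:**
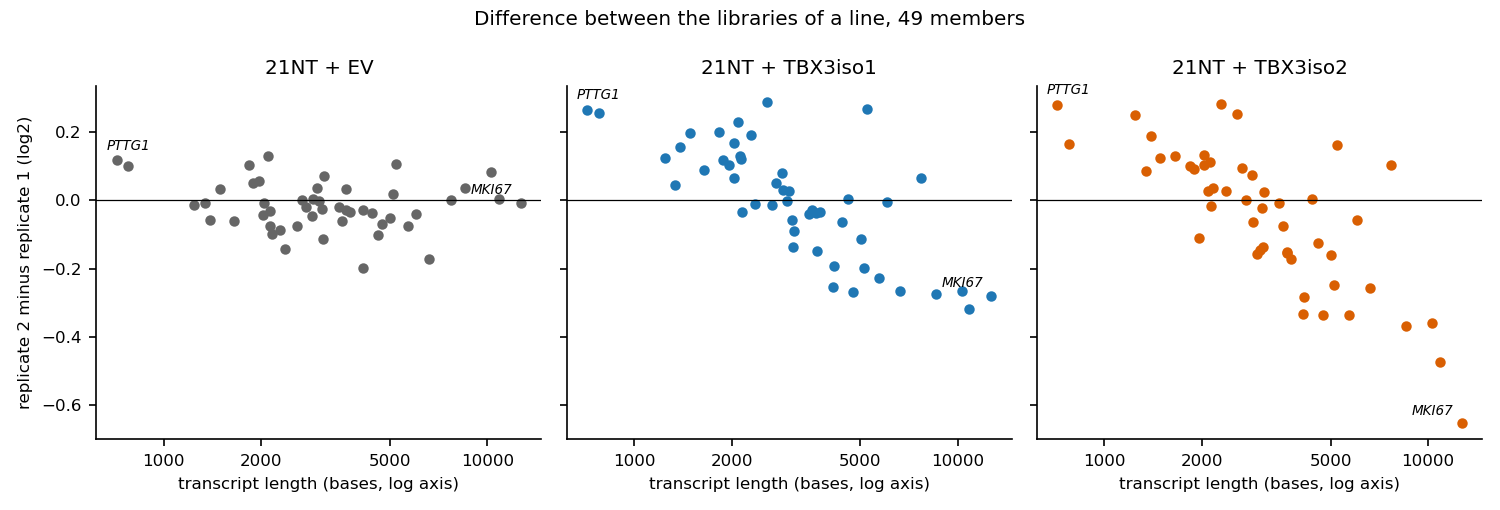
Difference between replicate 2 and replicate 1 (y axis, log2) of each of the 49 members against its transcript length (x axis, bases, log axis), in EV, TBX3iso1 and TBX3iso2. The points fall with length in the isoform lines (r = −0.757 and −0.780) and stay near 0 in EV (r = −0.186), from *PTTG1*, with the shortest transcript, to *MKI67*, with the longest.

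Other genes of the cell cycle were read beside the members. In the second G2/M list 5 of 78 genes (6.41%) were called with TBX3iso1 and 11 (14.1%) with TBX3iso2, all higher, beside 7.46% and 8.94% of all genes called higher, with median log2 fold changes of 0.13 and 0.22, close to those of the members. *HJURP*, the chaperone of CENPA, rose by 0.87 and 0.92 (limma adjusted p = 9.33e-05 and 7.23e-05). *SKA3*, a microtubule coupler of the kinetochore, rose by 0.82 and 0.86, *UBE2S*, an enzyme of the anaphase-promoting complex, by 0.59 and 0.88, and *PKMYT1*, an inhibitory kinase of CDK1, with TBX3iso2 by 0.68. *SPAG5*, astrin, rose with TBX3iso2 by 0.82, *SKA1* by 0.72 and *ZWINT*, a kinetochore protein, by 0.68. *CDCA3* rose with TBX3iso1 by 0.84. *ANAPC4*, a subunit of the anaphase-promoting complex, was the gene of this list called between the isoforms, higher with TBX3iso2 by 0.62 (limma adjusted p = 0.00540), and is named for that reason after its value was seen.

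In the G1/S and DNA replication list 10 of 59 tested genes (16.9%) were called with TBX3iso1 and 16 (27.1%) with TBX3iso2, all higher, beside the same 7.46% and 8.94% of all genes, with medians of 0.29 and 0.39, above those of the 49 members. *CCNE1*, cyclin E1, rose by 1.03 and 1.06 (limma adjusted p = 0.000200 and 0.000176), *MCM6*, of the replicative helicase, by 0.79 and 0.93, *GINS4* by 1.01 and 0.63, *DSCC1* by 0.71 and 0.91, and *CDC25A* by 0.76 and 0.78. *POLE2*, a polymerase subunit, and *GINS2* rose with TBX3iso2 by 0.93 and 0.87, and *ORC1*, of the origin recognition complex, rose with both, by 0.77 and 0.62. Of 13 CDK inhibitors, pocket proteins and their partners tested, 2 were called lower with TBX3iso1 (15.4%) and 3 with TBX3iso2 (23.1%), and none higher, beside 14.1% and 12.3% of all genes called lower. The share with TBX3iso1 is near that of all genes. *RBL2*, the pocket protein p130, fell by 0.95 with TBX3iso1 and by 0.94 with TBX3iso2, and *CDKN2B* fell by 0.76 and by 0.78. *CDKN1B*, which encodes p27, fell by 0.69 with TBX3iso2. *CDKN1A*, which encodes p21, was at −0.21 and −0.35 (limma adjusted p = 0.115 and 0.0231), and *CDKN2A* at −0.44 and −0.33 (adjusted p = 0.00533 and 0.0173), neither of them past the fold threshold.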

How the data were processed

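mRNA of 21NT + EV, 21NT + TBX3iso1 and 21NT + TBX3iso2 was sequenced from stranded libraries, 2 per line. Reads were aligned by the authors with TopHat (hg19), and RPKM from Partek is the deposited unit. Versions, the gene annotation and the strand setting of counting are not given in the sources used here. The table gave a number of alignments per library but no counts.

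Each RPKM value received a pseudocount of 0.1 and was log2-transformed. The 12805 genes whose 6 libraries averaged 0.5 RPKM or more were fitted with limma 3.58.1 in R 4.3.3 (1 mean per line, empirical Bayes with a trend, Benjamini-Hochberg adjustment over all of them) in 3 comparisons. The limma fit stands for the ANOVA of the study's methods, with its thresholds. The fit was tested on simulated data with independent noise in each gene and library. That simulation does not hold the correlated replicate differences given below, so it cannot show how they affect the p-values. Values after ± are SE from the fit. Replicate differences of the lines correlated by 0.22 (EV and TBX3iso1), 0.114 (EV and TBX3iso2) and 0.499 (TBX3iso1 and TBX3iso2), all above 0.1, and a fit with the replicate number as a block was also made. What a number marks is not given in the sources used here. With 2 libraries per line an exact permutation test cannot reach the threshold and was not used.

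The 49 members, the other gene lists and the tests were chosen with earlier results of these data known. Every member was reported, with full statistics for those called in at least 1 comparison, those with the largest rise and fall, the highest and lowest in level, and *CCNB1*, *CDK1*, *PLK1*, *AURKA*, *FOXM1*, *MKI67* and *BUB3*. From other lists up to 8 called genes with the largest change were named, with *CCNE1*, *CDKN1A*, *CDKN1B* and *CDKN2A*. A gene of these other lists is not reported here and is left out of its list's counts. Transcript length (Ensembl canonical transcript in GENCODE for GRCh37) was known for 95.8% of the genes tested and for all members. RefSeq promoter windows (GRCh38.p14) were matched by symbol, and those printed were located in GRCh37 by exact sequence and cut so that few annotated transcribed bases remained. Alternatives were other pseudocounts (1 and 0.01 RPKM), no filter or a filter at 2 RPKM, median-ratio and quantile scaling, other models, leaving out libraries and, chosen after seeing the data, the adjusted p alone, removal of the length trend, and leaving out replicate 1 or replicate 2 of both isoform lines.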

Additional observations from a re-analysis of the deposited data

Results flagged for a closer look

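Members whose response differed between the isoforms, by the direct test of TBX3iso2 against TBX3iso1 (limma adjusted p under 0.05 over all genes tested), were *AURKA* (log2 difference 0.49), *HMMR* (0.47), *PLK1* (0.34), *CDC20* (0.34), *NEK2* (0.28) and *FOXM1* (−0.39). None reached 1.5-fold. These are 12.2% of the members, beside 14.8% of all genes tested. With median-ratio scaling *NEK2* and *CDC20* did not pass (limma adjusted p = 0.0865 and 0.096). Nor did they pass without the filter on low values or without limma's trend. With quantile normalization *NEK2* did not pass (limma adjusted p = 0.061). With only the 2 isoform lines in the fit, *PLK1*, *NEK2* and *CDC20* did not pass. Without EV replicate 1, EV replicate 2 or TBX3iso1 replicate 1 the test was passed by *AURKA* and *HMMR* alone, *FOXM1* then having an adjusted p of 0.0504, 0.0506 and 0.0569 in limma, and an ordinary linear model passed none. In each of the 6 members both TBX3iso2 libraries lay on the same side of both TBX3iso1 libraries, beside 33.4% of all genes above and 20.1% below. The 6 were chosen by a test of the same libraries, so this adds no support. Against EV, *AURKA*, *HMMR* and *PLK1* were higher with TBX3iso2 at an adjusted p under 0.05 and not with TBX3iso1, *NEK2* was lower with TBX3iso1 only, *FOXM1* was lower with TBX3iso2 only, and *CDC20* passed in neither comparison.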

How the results depend on the processing

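The number of members called against EV stayed within 1.5 times of 3 for TBX3iso1 and of 5 for TBX3iso2 except that it was 5 for TBX3iso1 with median-ratio scaling, 3 for TBX3iso2 in an ordinary linear model on unlogged RPKM, and 19 and 30, with 6 between the isoforms, at an adjusted p alone. The members' median log2 fold change stayed positive in all 3 comparisons under every alternative. With median-ratio scaling it was 0.215 (TBX3iso1), 0.324 (TBX3iso2) and 0.064 (between the isoforms), with quantile normalization 0.15, 0.23 and 0.090, and with the length trend removed 0.17, 0.27 and 0.064. Leaving out each library in turn gave 0.11 to 0.16, 0.27 to 0.29, and 0.12 to 0.21 between the isoforms (0.14 without replicate 2 of both isoform lines). Relative to the median of all genes, the members lay 0.18 and 0.29 higher as deposited, 0.18 and 0.29 with median-ratio scaling and 0.13 and 0.20 with quantile normalization. Members' summed RPKM were 1968, 1972, 2276, 2303 and 2441 with median-ratio scaling in both EV libraries, both TBX3iso1 libraries and TBX3iso2 replicate 1, and 2111, 2100, 2275, 2149, 2514 and 2336 with quantile normalization. *TBX3* with TBX3iso1 was under 1.5-fold as deposited. It passed 1.5-fold at 0.62 with median-ratio scaling, and at 0.63 with quantile normalization and with the length trend removed. It also passed at 0.64 without replicate 2 of TBX3iso1 alone or of both isoform lines, with a range of 0.44 to 0.64 over libraries left out. In the second G2/M list 8 of 78 genes were called with TBX3iso1 under median-ratio scaling. Of the 12805 genes tested 2712 were called there, 1263 of them higher. Between the isoforms 0 genes of that list were called under median-ratio scaling or quantile normalization, beside 791 and 780 of all genes tested.

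Signs under the alternatives were followed, in each comparison, for its called members and for those with its largest rise and fall. *CCNB1*, *CDK1*, *PLK1*, *AURKA*, *FOXM1*, *MKI67* and *BUB3*, and *TBX3* against EV, were also followed. Other members were not checked. Some of the genes followed changed sign. Against EV these were, with TBX3iso1, *AURKA* at −0.031 with quantile normalization, *FOXM1* at 0.067 with median-ratio scaling, 0.034 with the length trend removed and −0.047 to 0.014 over libraries left out (positive without EV replicate 1), and *MKI67* at 0.14 with the length trend removed, 0.0015 without replicate 2 of both isoform lines and −0.28 to 0.0015 over single libraries left out (positive without TBX3iso1 replicate 2). With TBX3iso2, *MKI67* was at −0.55 to 0.099 over libraries left out, positive without replicate 2 of that line or of both isoform lines. Between the isoforms *MKI67* was at −0.41 to 0.24, positive without TBX3iso1 replicate 1 or TBX3iso2 replicate 2, and at 0.097 without replicate 2 of both, and *BUB3* was at −0.0105 with median-ratio scaling, −0.022 with the length trend removed and −0.011 to 0.092 over libraries left out, negative without TBX3iso2 replicate 2. The cause was not tested. A block for the replicate number gave 3, 5 and 0 calls among the members and changed no call of a member or of *TBX3*. At an adjusted p alone the block gave 21 higher and 5 lower with TBX3iso1, beside 24.1% and 31.8% of all genes. With TBX3iso2 it gave 32 and 2, beside 27.9% and 28.1% of all genes. Between the isoforms it gave 14 and 1, beside 15.5% and 9.5%. With 2 libraries per line that are replicates of 1 transfected pool, differences between lines cannot be told apart from differences between pools.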
